A study of Mus musculus with 6 samples.

Results

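Expression of 10 genes known from basophils, mast cells and blood progenitors was followed in CD11b-sorted spleen cells of transplanted mice given rapamycin or PBS. The genes were the proteases Mcpt8 and Cpa3, the receptors Fcer1a, Ms4a2, Cd200r3 and Kit, the transcription regulators Gata2, Lmo2 and Myb, and the surface sialomucin Cd34. They were taken by symbol from the 19938 genes that had a probe set naming that gene alone, and all 10 were found, each with 1 probe set. The recipients were B6D2F1/J mice, lethally irradiated and rebuilt with B6 marrow from which T cells had been removed, and the labels leave unsaid which mice also received B6 spleen cells. Rapamycin (1.5 mg/kg) or PBS was injected into the peritoneum on alternate days up to day 10, when the cells were taken by magnetic sorting of the splenocytes, so both groups share irradiation, the marrow graft and the sort. Each group held 3 mice with 1 array per mouse, and the labels call the mice biological replicates. The labels call the cells myeloid-derived suppressor cells (young myeloid cells that can hold T cells back), but the sort rests on CD11b alone. Itgam, which encodes CD11b, read 12.22 to 12.48 on the log2 scale over the 6 arrays and Ly6g, a neutrophil surface protein, 11.66 to 12.36, both well above the brightness threshold of 4.72 used below. Rapamycin minus PBS, Itgam differed by -0.12 and Ly6g by -0.31 (limma adjusted p 0.221 and 0.202). Itgam was lower on all 3 rapamycin arrays than on any PBS array, while the groups overlapped for Ly6g.

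Basophils and mast cells are granule-bearing cells that bind IgE through a receptor built of the alpha chain Fcer1a, the beta chain Ms4a2 and the shared gamma chain Fcer1g, and that release histamine, proteases and cytokines when the receptor is crosslinked. Basophils arise from Kit- and Cd34-bearing progenitors under the control of GATA2, leave the marrow as short-lived cells that carry CD11b, and so can be held by a CD11b sort. Mast cells mature in tissues and depend on signals through Kit. The regulators Gata2, Lmo2 and Myb act in blood stem and progenitor cells, Lmo2 as a bridge that joins GATA factors to TAL1 or LYL1, the E proteins and LDB1.

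The 250 bases before the start site are shown for the 5 genes that belong most closely to basophils and mast cells, because Mcpt8 and Cpa3 gave like patterns over the arrays and GATA factors are known regulators of this lineage. They are RefSeq promoters of GRCm38.p6, written 5′ to 3′, and capitals mark matches on either strand to 1 of 4 forms of the GATA motif (the form AGATAA, the form TGATAA, the form AGATAG and the form TGATAG).
Mcpt8 (chr14:56085198-56085447, minus strand): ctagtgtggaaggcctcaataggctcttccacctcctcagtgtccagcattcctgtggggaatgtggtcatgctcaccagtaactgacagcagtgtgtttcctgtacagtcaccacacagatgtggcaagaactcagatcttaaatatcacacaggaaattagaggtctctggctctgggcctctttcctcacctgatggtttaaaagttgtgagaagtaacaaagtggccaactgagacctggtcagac
Cpa3 (chr3:20242182-20242431, minus strand): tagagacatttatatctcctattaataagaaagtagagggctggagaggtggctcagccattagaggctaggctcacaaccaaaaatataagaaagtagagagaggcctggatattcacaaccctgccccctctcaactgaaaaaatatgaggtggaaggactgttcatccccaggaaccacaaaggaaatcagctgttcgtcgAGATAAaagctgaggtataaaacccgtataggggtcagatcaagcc
Fcer1a (chr1:173227230-173227479, minus strand): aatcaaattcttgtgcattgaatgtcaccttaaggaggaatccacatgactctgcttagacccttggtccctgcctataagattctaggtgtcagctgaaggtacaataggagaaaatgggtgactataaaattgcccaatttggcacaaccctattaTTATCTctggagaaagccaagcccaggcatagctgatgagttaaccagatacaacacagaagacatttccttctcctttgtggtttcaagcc
Ms4a2 (chr19:11623720-11623969, minus strand): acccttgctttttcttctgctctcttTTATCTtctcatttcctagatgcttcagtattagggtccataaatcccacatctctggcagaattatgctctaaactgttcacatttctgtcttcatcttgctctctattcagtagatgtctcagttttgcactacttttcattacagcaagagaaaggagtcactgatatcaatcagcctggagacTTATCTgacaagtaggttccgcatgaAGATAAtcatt
Cd200r3 (chr16:44943428-44943677, plus strand): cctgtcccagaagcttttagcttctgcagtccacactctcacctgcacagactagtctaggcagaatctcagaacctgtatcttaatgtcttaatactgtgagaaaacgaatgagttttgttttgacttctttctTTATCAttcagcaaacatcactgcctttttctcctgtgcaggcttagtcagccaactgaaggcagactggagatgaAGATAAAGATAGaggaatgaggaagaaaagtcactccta

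Of 27018 promoters of the same length, 1 per gene, 27.1% held at least 1 such GATA match and 6.69% held 2 or more. RefSeq gave a promoter for 9 of the 10 genes, and 5 of the 9 held a match. Cpa3 held 1 match (40 bases before the start site), Fcer1a 1 (86 bases before it), Ms4a2 3 and Cd200r3 3, and the Mcpt8 window held 0. The fifth gene was Cd34, with 1 match, while the windows of Kit, Gata2 and Myb held 0. A second motif, TGTGGT, which RUNX factors are known to bind, was searched on both strands and stood in 14.2% of all promoters and in 3 of the 9. Mcpt8 held 2 of these matches, and Cpa3 and Fcer1a 1 each. The 2 motifs do not overlap in these windows, and a match is a description of the letters only.

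Rapamycin was compared with PBS to ask how basophil, mast cell and progenitor transcripts differed when mTOR, the kinase that rapamycin inhibits, was blocked after the transplantation. Lmo2 fell 1.42-fold with rapamycin, and it was the 1 gene of the 10 that passed the test. Mcpt8, Cpa3 and Myb were lower on all 3 rapamycin arrays than on any PBS array, by 1.63-, 1.48- and 1.19-fold, but at adjusted p between 0.0646 and 0.0664 they missed the threshold. Kit, Gata2 and Cd34 did not pass the test, with log2 differences of 0.04, -0.08 and -0.02. These values do not show that the RNAs were unchanged. The limma interval ran from -0.19 to 0.27 for Kit and from -0.22 to 0.06 for Gata2. Cd34 lay under the brightness threshold, where array values are compressed, so its small difference shows little.

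A gene was called when its p from limma, adjusted over all genes tested, was under 0.05. Of the 10 genes, 6 had a mean over all arrays above log2 4.72, the 30th percentile of named probe sets, and were tested with the 13965 genes above it. The other 4 (Fcer1a, Ms4a2, Cd200r3 and Cd34) were too dim for that and were read from a fit of all 19938 genes. Of the 6, 1 was called lower and 0 higher, where 11.3% of all genes tested were called, 6.92% as lower and 4.42% as higher. A share of 1 in 6 at this background is no result about the group. In the fit of all genes, which called 6.32% of them, 3.87% as lower and 2.45% as higher, Lmo2 was again the 1 gene called. The direction was more uniform: 9 of the 10 genes had a negative log2 difference, against 52.7% of all genes. All 3 rapamycin arrays lay under all 3 PBS arrays for 5 of the 10, against 15.1% of all genes, and above them for 0 of the 10, against 11.1%. Among the 6 brighter genes the median log2 difference was -0.38, against -0.02 over all genes tested, and over all 10 it was -0.16, against -0.01. These shares and medians are a description only. The 10 genes were chosen with earlier results of these data known, and they share the same 6 arrays. The median over all probe sets was 5.42 to 5.46 on the 6 arrays, and arrays correlated across genes at 0.9958 or more within a group and at 0.9930 or less between groups.

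**Figure D1:**
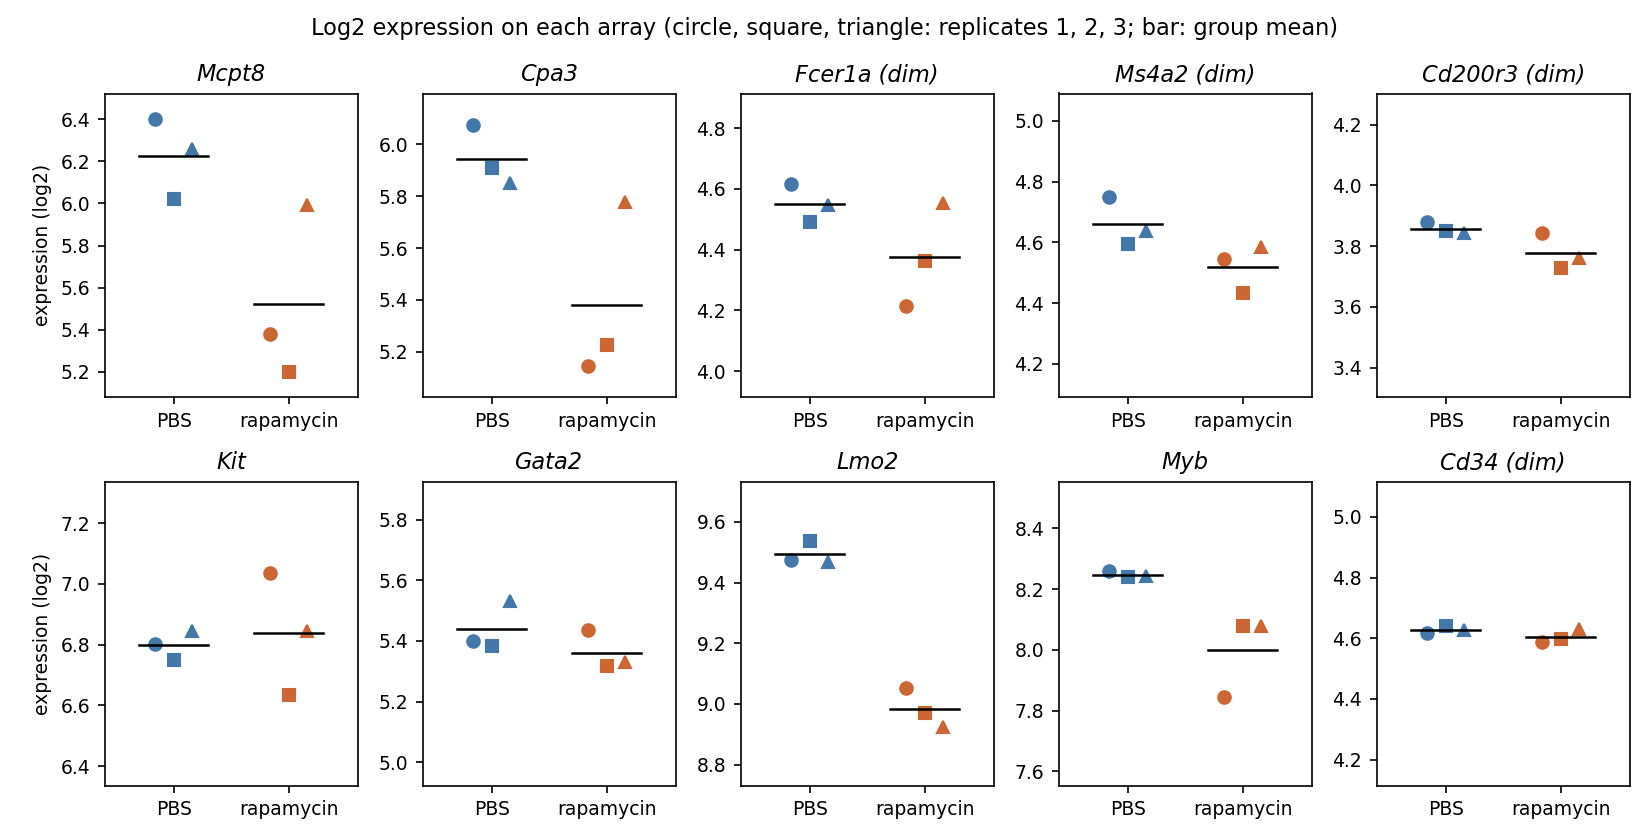
Log2 expression of the 10 genes on each of the 6 arrays, with 1 panel per gene, circles, squares and triangles for replicates 1, 2 and 3 and a bar at the group mean; the vertical axes cover different ranges, and genes marked dim lie under the brightness threshold. Lmo2 separates the groups tightly (9.47 to 9.54 against 8.93 to 9.05), while in the Mcpt8 and Cpa3 panels rapamycin replicate 3 (5.99 and 5.78) sits just under the PBS arrays.

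The proteases gave the largest log2 differences of the 10 genes. Mcpt8, a granule serine protease that marks mouse basophils, read 6.40, 6.02 and 6.26 on the log2 scale in PBS replicates 1 to 3. It read 5.38, 5.20 and 5.99 with rapamycin. The groups did not overlap, but rapamycin replicate 3 lay only just under the lowest PBS array and far above the other two. The log2 difference was -0.70 ± 0.20 (SE, n = 3 each), with a 95% interval of -1.17 to -0.23 and a limma adjusted p of 0.0660. Cpa3, the carboxypeptidase of mast cell and basophil granules, read 6.08, 5.91 and 5.85 with PBS. With rapamycin it read 5.14, 5.22 and 5.78. Here too replicate 3 was the highest rapamycin array and the one next to the PBS range, and the log2 difference was -0.56 ± 0.16 (SE), with an interval of -0.94 to -0.19 and a limma adjusted p of 0.0664. The rapamycin arrays spread more widely than the PBS arrays for both genes, with an SD of 0.42 against 0.19 for Mcpt8 and of 0.34 against 0.12 for Cpa3.

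With rapamycin replicate 3 left out, both proteases passed the test: Mcpt8 at -0.94 ± 0.12 (SE, limma adjusted p 0.0186) and Cpa3 at -0.76 ± 0.08 (0.0144). Leaving out any other single array called neither. Of 17 alternatives 7 called Mcpt8, 6 of them fits of all 6 arrays, and of 16 alternatives 4 called Cpa3, 3 of them fits of all 6 arrays. Over these alternatives the limma adjusted p ran from 0.0186 to 0.239 for Mcpt8 and from 0.0144 to 0.236 for Cpa3. The basophil marker list held 3 other genes above the threshold, with log2 differences of both signs. Prss34, a further protease of mouse basophils, read 6.91, 6.73 and 6.58 with PBS and 6.17, 6.20 and 6.56 with rapamycin. Its log2 difference was -0.43 ± 0.12 (SE, limma adjusted p 0.0684), and rapamycin replicate 3 was again the array nearest to PBS. Prss34 was called in 4 alternatives, among them the fit without that array. The other 2, Il3ra and Hdc, had positive log2 differences of 0.12 and 0.16, neither called, and the fit without rapamycin replicate 3 called Hdc as higher (0.37 ± 0.05, SE, limma adjusted p 0.0188). In RNA from a mixed sort, fewer cells of a type and less RNA per cell cannot be told apart.

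The IgE receptor genes were dim. Fcer1a, the chain that binds IgE, read 4.62, 4.49 and 4.55 with PBS and 4.21, 4.36 and 4.55 with rapamycin, and the groups overlapped through rapamycin replicate 3. Its log2 difference was -0.17 ± 0.09 (SE), with an interval of -0.38 to 0.03 and a limma adjusted p of 0.288 in the fit of all genes. Ms4a2, the signal-amplifying beta chain, read 4.75, 4.59 and 4.64 with PBS. With rapamycin it read 4.54, 4.43 and 4.58, so that all 3 arrays lay under PBS by a narrow margin. The difference was -0.14 ± 0.06 (SE, limma adjusted p 0.222), with an interval of -0.28 to 0.001. Fcer1g, the gamma chain that neutrophils and monocytes also use for IgG receptors, read 12.70 to 12.79 with PBS and 12.75 to 12.87 with rapamycin, a difference of 0.07 ± 0.05 (SE, limma adjusted p 0.401). Array values are compressed near their low end, so that the differences of Fcer1a and Ms4a2 bound the change of these RNAs poorly.

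Cd200r3, an activating receptor on basophils and mast cells, stood lowest against the threshold, at 3.88, 3.85 and 3.84 with PBS and 3.84, 3.73 and 3.76 with rapamycin. The groups met at 3.84, which PBS replicate 3 and rapamycin replicate 1 shared exactly, and the difference of -0.08 ± 0.04 (SE, limma adjusted p 0.321) had an interval of -0.18 to 0.02. Kit, the receptor for stem cell factor, read 6.80, 6.75 and 6.84 with PBS. With rapamycin it read 7.04, 6.63 and 6.84, which puts 1 array above, 1 below and 1 at the edge of the PBS range. The log2 difference of 0.04 ± 0.10 (SE, limma adjusted p 0.823) had an interval of -0.19 to 0.27, and without rapamycin replicate 1 it turned to -0.06. Kitl, which encodes the ligand of Kit, was under the threshold at 3.74 to 3.85 on all 6 arrays (limma adjusted p 0.641 in the fit of all genes).

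**Figure D2:**
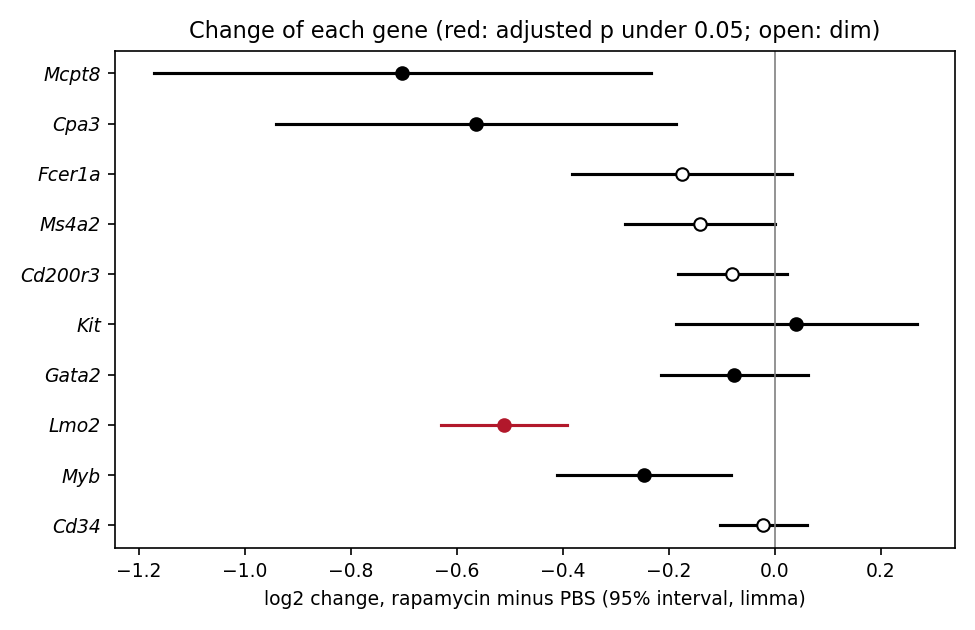
Log2 change of each of the 10 genes (rapamycin minus PBS, points) with limma's 95% interval (lines); red marks an adjusted p under 0.05, and open points are dim genes read from the fit of all genes. The intervals of Lmo2 (-0.63 to -0.39), Mcpt8, Cpa3 and Myb lie under 0, and those of the other 6 genes include it.

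Among the transcription regulators, Lmo2, the adaptor of the GATA and TAL1 complex, read 9.47, 9.54 and 9.47 with PBS. With rapamycin it read 9.05, 8.97 and 8.93. The arrays of each group lay close together and the gap between the groups was several times their spread (SD 0.04 and 0.06). Lmo2 fell by 0.51 ± 0.05 on the log2 scale (SE, n = 3 each), which is 29.8% lower, with a limma adjusted p of 0.00513 and an interval of -0.63 to -0.39. It kept its call in all 17 alternatives, leaving out each of the 6 arrays included, with values from -0.55 to -0.48 and adjusted p from 0.00271 to 0.0483. Here rapamycin replicate 3 was the lowest of the 6 arrays, the opposite of its place for the proteases.

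Myb, which keeps progenitors dividing and immature, read 8.26, 8.24 and 8.24 with PBS and 7.84, 8.08 and 8.08 with rapamycin. The PBS arrays agreed within an SD of 0.01, rapamycin replicates 2 and 3 held the same value, and replicate 1 was lower. The log2 difference was -0.25 ± 0.07 (SE, limma adjusted p 0.0646, interval -0.41 to -0.08). It was -0.17 without rapamycin replicate 1 (0.0987). Of 17 alternatives 3 called Myb, all fits of the 6 arrays, and over the 17 the limma adjusted p ran from 0.0394 to 0.189. Gata2, the GATA factor of stem cells, basophils and mast cells, read 5.40, 5.38 and 5.53 with PBS and 5.44, 5.32 and 5.33 with rapamycin. These ranges overlapped, and the difference of -0.08 ± 0.06 (SE, limma adjusted p 0.437) had an interval of -0.22 to 0.06. Cd34, which marks stem and progenitor cells, was dim and nearly flat at 4.62, 4.64 and 4.63 with PBS and 4.59, 4.60 and 4.63 with rapamycin (limma adjusted p 0.744, interval -0.10 to 0.06).

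**Figure D3:**
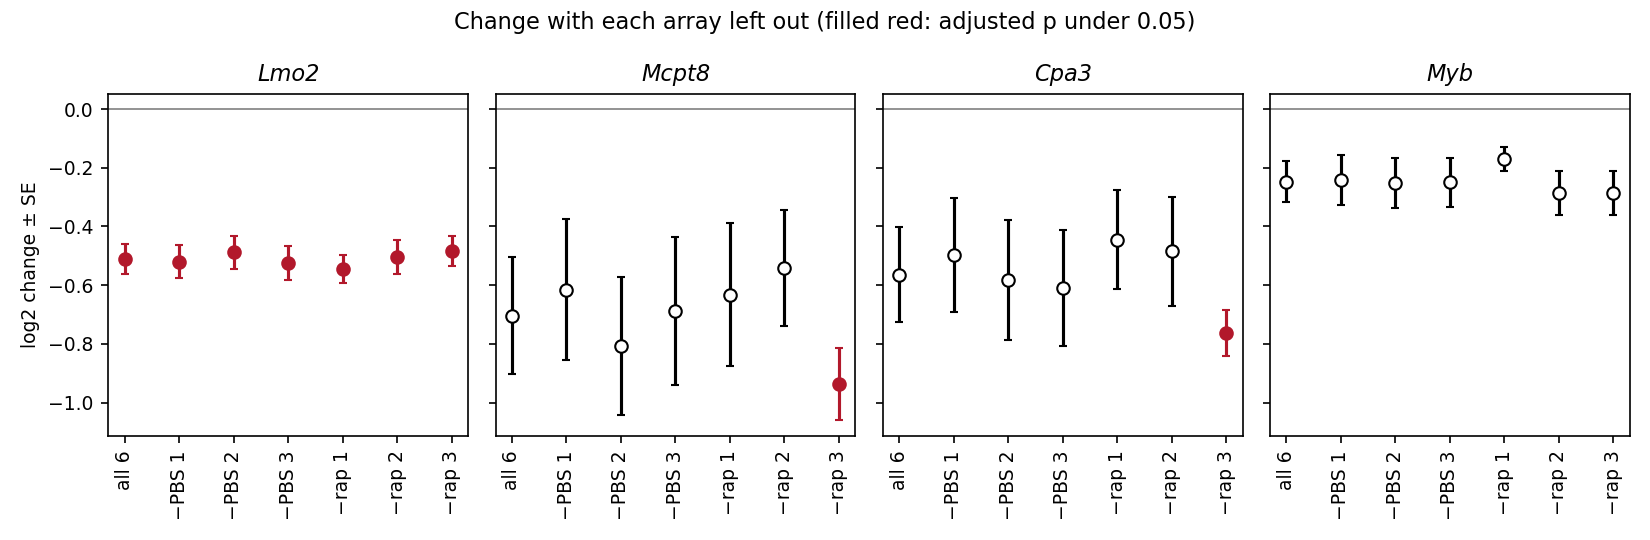
Log2 change (rapamycin minus PBS) with its SE for Lmo2, Mcpt8, Cpa3 and Myb with all 6 arrays and with each array left out in turn, filled red where the adjusted p was under 0.05. Lmo2 stayed between -0.55 and -0.48 and called throughout, whereas Mcpt8 and Cpa3 were called in the fit without rapamycin replicate 3 alone and Myb in none of these 7 fits.

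Marker genes were read to place the members in the sort. The brightness threshold is low: 13965 of all 19938 genes lay above it, so a count above it does not show that a cell type was present. Of 8 basophil markers 5 were above the brightness threshold (Mcpt8, Prss34, Cpa3, Il3ra and Hdc), although Hdc, the histamine-forming enzyme, is also made by immature myeloid cells. Of 10 mast cell markers 4 were above it (Tpsb2, Kit, Cpa3 and Hdc), while the connective tissue mast cell genes Cma1, Mcpt4, Tpsab1 and Mrgprb2 were all under it. The tryptase Tpsb2 read 5.45 to 5.54, with nearly the same value on every rapamycin array (SD 0.001). It did not differ by the test (-0.04 ± 0.04, SE, limma adjusted p 0.599). Hdc had another pattern than the proteases: it read 11.18 to 11.25 with PBS and 11.57, 11.62 and 10.98 with rapamycin, so that rapamycin replicate 3 was the lowest of the 6 arrays. Il3ra, the alpha chain of the IL-3 receptor, which drives basophil growth, was higher on all 3 rapamycin arrays by 0.12 ± 0.05 (SE) and missed the threshold (limma adjusted p 0.186). Of 9 measured stem and progenitor markers 8 were above the threshold, although 1 of them, Hoxa9, held the same value of 5.52 on all 6 arrays. Such a row shows nothing about the treatment. Lmo2 was the 1 called among the 8, and Flt3, a receptor of early progenitors, differed by -0.02 ± 0.12 (SE, limma adjusted p 0.920).

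Related genes were read from 5 lists, which besides the members held 114 measured genes, 92 of them above the threshold. Of the 92, 8 rose and 6 fell, while 78 missed the threshold, a share of 15.2% called against 11.3% of all genes. Their median log2 difference was -0.002, against -0.02 over all genes tested. Of the 22 other basophil and mast cell genes above the threshold 2 fell and 0 rose, and 20 missed the threshold. The cytotoxic protease Gzmb fell by 0.76 ± 0.11 (SE) and the chemokine Ccl3 by 0.31 ± 0.07, with limma adjusted p of 0.0102 and 0.0380. Both are also made by other cells, Gzmb above all by T and NK cells. Of the 20 others, the paired receptor Cd200r4 came nearest to a call. It was higher on all 3 rapamycin arrays, by 0.37 ± 0.099 (SE, limma adjusted p 0.0539). Prss34, next nearest, went the other way (-0.43, 0.0684). The cytokines Il4 and Il13 had log2 differences of 0.03 and 0.04, but both read close to the brightness threshold, so these values show little. The median of the list was 0.03.

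Of 21 genes of IgE receptor signalling, all above the threshold, 2 rose and 1 fell, and 18 missed the threshold, with a median of 0.02. The adaptor Gab2 rose by 0.26 ± 0.05 (SE, limma adjusted p 0.0305) and the kinase Btk by 0.22 ± 0.06 (0.0495), and the adaptor Grb2 changed by -0.26 ± 0.06 (0.0405). The kinase Syk, which docks on the gamma chain, differed by -0.04 ± 0.06 (SE, 0.661). In the list of Kit, IL-3 and TSLP receptor signalling 3 of 17 genes above the threshold rose and 2 fell, and 12 missed the threshold, with a median of 0.12. Bcl2l1, an inhibitor of cell death, rose by 0.43 ± 0.06 (SE, limma adjusted p 0.0105). The feedback inhibitor Socs2 rose by 0.31 ± 0.06 (0.0242), and Csf2rb2, a beta chain used by the mouse IL-3 receptor, by 0.23 ± 0.05 (0.0319). Csf2rb of the same list differed by 0.26 ± 0.08 and missed the threshold (0.0787). Csf2ra, the alpha chain of the GM-CSF receptor, changed by -0.30 ± 0.05 (0.0182), and the adaptor Shc1 by -0.33 ± 0.07 (0.0309).

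Among 25 other stem and progenitor genes above the threshold 2 rose and 0 fell, and 23 missed the threshold, with a median of -0.03. Nearest of the 23 to a call was Cd27 (-0.42, limma adjusted p 0.0530). Procr, the protein C receptor that marks stem cells and is also found on other cells, read 6.88, 6.53 and 6.69 with PBS and 7.68, 7.74 and 7.02 with rapamycin, a rise of 0.78 ± 0.19 (SE, limma adjusted p 0.0421). Cd93, a receptor of early progenitors and of monocytes, rose by 0.60 ± 0.15 (SE, 0.0456). Of the 18 partner factors of LMO2, GATA2 and MYB, a list that holds Gata2 itself, 1 rose and 1 fell, with a median of -0.06. The coactivator Ep300, which MYB binds, rose by 0.35 ± 0.05 (SE, limma adjusted p 0.0103), and the E protein gene Tcf3 changed by -0.24 ± 0.06 (SE, 0.0416). Of the other parts of the Lmo2 complex, Ldb1 differed by -0.12, Lyl1 by -0.16 and Tal1 by -0.07 on the log2 scale. None of them passed the test, with limma adjusted p between 0.118 and 0.472, though Ldb1 and Lyl1 were lower on all 3 rapamycin arrays. Tcf12 differed by -0.002 (0.992) and Gata1 by -0.05 (0.685). Cbfa2t3 of the same list went the other way, by 0.38 ± 0.11 (SE, 0.0635), and was higher on all 3 rapamycin arrays. Nearest to a call in this list were Ets1 (-0.29, limma adjusted p 0.0558) and Runx1 (0.23, 0.0583), with opposite signs.

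Fewer of the 14 calls among related genes held when any 1 array was left out, in fits that rest on fewer arrays. Ccl3, Gab2, Btk, Socs2 and Shc1 were lost whichever array was left out. Leaving out PBS replicate 1 left 4 calls (Bcl2l1, Ep300, Gzmb and Tcf3), leaving out PBS replicate 2 left 0 in limma (27 at an unadjusted p under 0.05), and leaving out PBS replicate 3 left Ep300 alone. Grb2 and Gzmb were the 2 called when rapamycin replicate 1 was dropped, and 5 genes were called when rapamycin replicate 2 was. Without rapamycin replicate 3 there were 12, of which Prss34, the paired receptor Cd200r4, Hdc, Cbfa2t3, Jak2 and Runx1 were not among the 14. Over all genes tested, the fit without PBS replicate 2 left 113 calls of 1584.

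**Figure D4:**
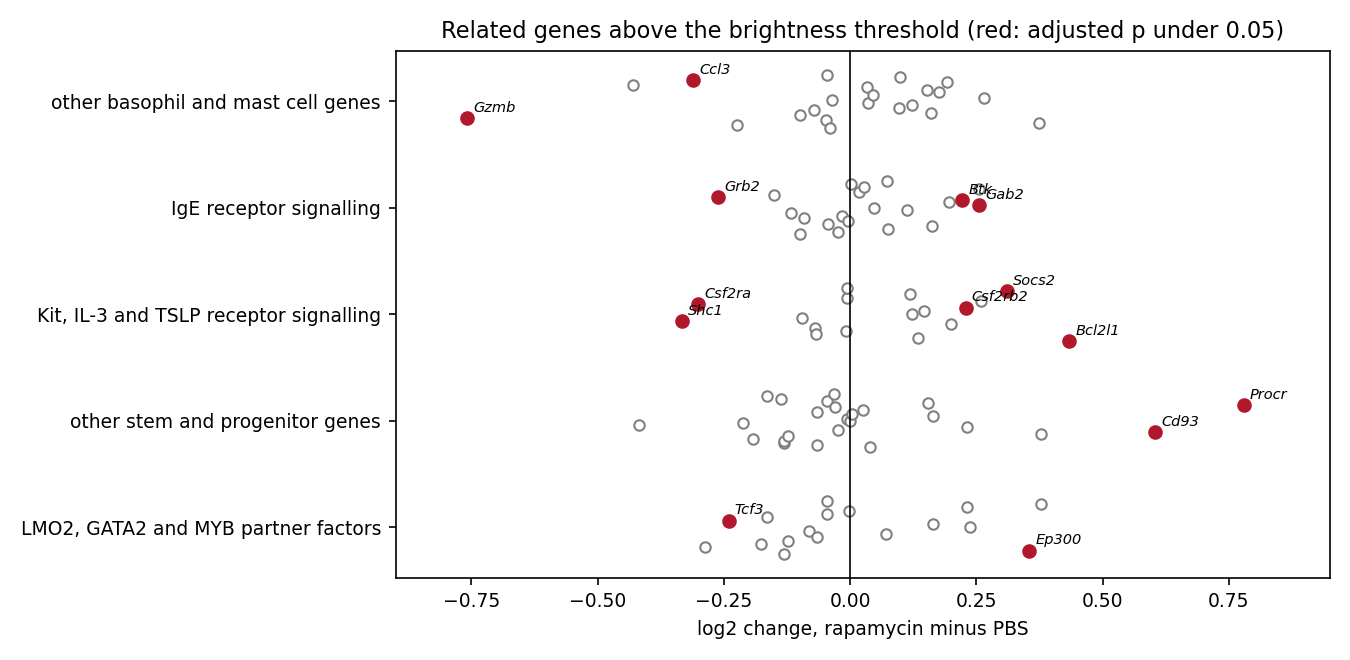
Log2 change (rapamycin minus PBS) of every related gene above the brightness threshold, 1 point per gene and list, members left out and points spread vertically for legibility, with called genes in red and named. Calls lie on both sides of 0, from Gzmb (-0.76) to Procr (0.78), and most genes lie within 0.2 of 0.

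Markers of other cells in the sort moved with the treatment too, and their part in the results above was not tested. Of 7 T cell genes above the threshold 3 fell and 0 rose, where 6.92% of all genes tested were called lower and 4.42% higher (Ubash3a by 0.51 ± 0.10, Cd3g by 0.39 ± 0.09 and Cd8a by 0.27 ± 0.06 on the log2 scale, SE), and the mean log2 level of the list was 5.72 to 5.81 with PBS and 5.41 to 5.53 with rapamycin. Il2rb of the NK and innate lymphoid list fell by 0.43 ± 0.07, where 1 of 4 genes above the threshold was called, and Cd79b of the B and plasma cell list by 0.32 ± 0.06, again 1 of 4. Of the 6 limma fits that each left out an array, 0 called Cd8a, 1 each called Ubash3a and Cd3g, 2 called Cd79b and 4 called Il2rb. The lowest T cell level was that of rapamycin replicate 3, the array with the highest protease levels of its group. Of 17 genes of neutrophil progenitors and primary granules 2 fell, Nkg7 by 0.66 ± 0.12 and Gfi1 by 0.34 ± 0.07, and 0 rose. The other 15 were not called, and the median log2 difference of that list was -0.06. Its mean level was 10.11 to 10.15 with PBS and 10.00 to 10.07 with rapamycin.

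Calls were also spread over lists of other blood cell types. Of 13 erythroid genes above the threshold 1 rose (the band 3 gene Slc4a1, by 0.64 ± 0.09, SE) and of 9 platelet and megakaryocyte genes 1 fell (Itgb3, by 0.46 ± 0.10). Of 7 eosinophil genes above the threshold 2 rose, Rnase2a by 2.68 ± 0.17 and Alox15 by 2.47 ± 0.27, and the other 5 were not called. The mean level of the list was 6.96 to 7.21 with PBS and 7.60 to 7.96 with rapamycin, but its median log2 difference was only 0.06. Epx and Prg2, granule proteins that define eosinophils, were under the threshold. Of 10 monocyte and macrophage genes 2 rose (Cd14 and Cd68) and 1 fell (Ccr2), of 9 dendritic cell genes 1 rose (Itgax) and 1 fell (Bst2), and of 12 neutrophil genes limma called 0, with 0 at an unadjusted p under 0.05. All lists of other cell types together held 16 calls among 91 genes, or 17.6%, against 11.3% of all genes tested. Dropping PBS replicate 1, 2 or 3 left 10, 3 or 5 calls in these lists, and dropping rapamycin replicate 1, 2 or 3 left 7, 9 or 15.

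The genes whose pattern over the 6 arrays was most like that of Mcpt8, once each group's mean had been taken off, were Cdc14b, Septin9, Mlycd, Ttf2 and Mat2b, with Pearson r from 0.993 to 0.998. Of 13958 genes compared, 285 reached 0.9 or more and 436 lay at -0.9 or under, and all share the same 6 arrays and 2 subtracted means. Among the members, r with Mcpt8 was 0.89 for Cpa3, 0.30 for Myb, 0.28 for Kit, -0.04 for Gata2 and -0.67 for Lmo2. Lmo2 and the proteases thus placed the mice of a group in unlike orders.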

How the data were processed

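Total RNA of CD11b-sorted splenocytes was labelled in a whole-transcript sense assay, with an array for each mouse, per the labels' protocols. The deposited log2 values were made by the authors with RMA in Affymetrix Expression Console, per the submitters' processing notes, which name no versions. RMA equalises the arrays' distributions, so a shift of most genes would be removed. The values were used as deposited. Arrays have no depth, and their number limits the precision.

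Gene names came from the 2016 annotation of the array platform: 21789 of 35556 probe sets named 1 gene. For a gene with several, the brightest by mean was taken. Genes under the 30th percentile were set aside (5973). The comparison used limma 3.58.1 under R 4.3.3 (lmFit, eBayes, 2-sided, Benjamini-Hochberg). Standard errors and 95% intervals are moderated. The fit was tested on simulated data. The 15 lists other than the members had 269 entries, of which 242 matched a measured gene. Members and lists were chosen with earlier results of these data known. All members are named, as are every called gene of the 5 related lists, up to 4 called genes of each other list, Fcer1g, Kitl and the 5 genes most like Mcpt8. Other list genes given with values were chosen after those were seen. No array date is in the labels, so batches were not tested. Figures used matplotlib 3.10.9.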

Additional observations from a re-analysis of the deposited data

How the results depend on the processing

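The members called, 1 of 6, numbered 2 with the replicate number as a block (replicate block: Lmo2 and Mcpt8) or with the medians of the tested genes aligned, a setting chosen after seeing the data. They numbered 3 with the stricter 50th percentile filter or quantile normalization again, and 4 with the array medians aligned or array weights. With 1 array left out they ranged from 1 to 3. Kit (0.04) turned to -0.059 without rapamycin replicate 1 and ranged up to 0.142 with other arrays left out. No other member above the brightness threshold changed direction, and Lmo2 was called in every alternative. The 1584 calls over all genes became 86 in an unmoderated fit and ranged from 113 to 1336 with 1 array left out. With the medians of the tested genes aligned 44.7% of calls were lower, in place of 61.0%, and with the array medians aligned 71.0%. The count of related genes called, 14, became 8 with no brightness filter, where more genes are tested. It was 0 in the unmoderated fit (29 at an unadjusted p under 0.05). With 1 array left out it was 0 to 12, not all of them among the 14. In the other fits of all 6 arrays it ran from 14 to 20. Same-numbered arrays deviated together at r of 0.263, 0.01 and 0.046, against -0.193 to 0.138 for arrays of unlike number. Only the value of replicate 1 lay above that range, and the numbers were not taken as pairs. The block gave 1691 calls. Signal limits what Fcer1a, Ms4a2, Cd200r3 and Cd34 can show: they lay under the brightness threshold, where array values are compressed.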
